A study of Mus musculus with 17 samples.

Results

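Interferon-stimulated genes, the transcripts that cells raise when they meet an interferon, were described here as a list of 39 mouse genes measured in the colonic mucosa. A gene entered through probe sets whose symbol in the array's probe-to-gene table was that gene and no other, and the probe set with the highest mean stood for a gene with several. By this rule 36 of the 39 genes were measured, among 18193 genes on the whole array. They fell into 7 of 8 listed targets of interferon gamma (Irf1, Gbp2, Gbp3, Gbp6, Irgm1, Igtp and Iigp1) and 29 of 31 listed genes grouped as targets of type I interferon. Gbp4 and Isg15 each appeared only on 1 probe set shared with another gene and Ifi44 on none, so these 3 have no value here. In all, 54 probe sets carried the members, 23 members had 1 probe set and 13 had more, up to 4.

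The 17 samples were RNA from the colonic mucosa of mice on a C57BL/6J background, all homozygous for a floxed PPAR γ gene (PPAR γ fl/fl), either with a Cre recombinase transgene under the CD4-Cre promoter (CD4Cre+, called CD4cre) or without it (Cre-, called WT). Because developing T cells pass through a CD4-expressing stage in the thymus, PPAR γ is deleted in both CD4+ and CD8+ T cells of CD4cre mice, while other cells of the mucosa keep it. Mice drank 2.5% dextran sodium sulfate (DSS), which injures the colon lining and induces colitis, for 2 or 7 days, or none (day 0). Each of the 6 groups had 3 samples, except WT on day 7 with 2, the age of the mice is not given in the sources used here, and no label states that the replicates of a group were separate mice, so p-values measure the spread between these samples.

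Type I interferons signal through a receptor found on nearly every cell and activate a complex that includes Stat2 and Irf9 and binds the interferon-stimulated response element in the promoters of antiviral genes. Interferon gamma, made mainly by T cells and natural killer cells, acts through a separate receptor and the gamma-activated site in its target promoters, and it is known for arming macrophages and epithelial cells with guanylate-binding proteins, immunity-related GTPases and the machinery of antigen presentation. The division is not strict, since most members answer to both interferons to some degree. Among the genes grouped here with the type I targets, Irf8, Ifi47, Tap1, Tap2 and Socs1 are also well known as targets of interferon gamma, and values with these 5 counted on the other side are given where that matters.

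Promoter sequence was taken from RefSeq on build GRCm38.p6, whose promoter table held 26 of the 36 members. The 5 windows printed here are the last 120 bases before the transcription start of genes whose change is described below, and they are shown because each holds a core motif of one of these pathways. They are chr11:53769894-53770013 on the + strand for Irf1, chr3:142620543-142620662 on the + strand for Gbp2, chr11:58199436-58199555 on the + strand for Igtp, chr7:104465194-104465313 on the - strand for Trim30a and chr7:78913304-78913423 on the + strand for Isg20. Each is upstream of the gene's annotated start, and for Irf1, Trim30a and Isg20, which have several starts, the window with a motif is shown. Capitals mark the motifs, read 5′ to 3′ on the strand of the gene.
Irf1: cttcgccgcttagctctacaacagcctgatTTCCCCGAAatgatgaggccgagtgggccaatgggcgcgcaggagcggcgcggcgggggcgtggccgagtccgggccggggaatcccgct
Gbp2: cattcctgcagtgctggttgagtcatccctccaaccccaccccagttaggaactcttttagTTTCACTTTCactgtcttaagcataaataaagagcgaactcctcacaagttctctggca
Igtp: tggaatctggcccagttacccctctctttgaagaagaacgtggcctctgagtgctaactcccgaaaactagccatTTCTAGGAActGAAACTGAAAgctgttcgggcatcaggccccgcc
Trim30a: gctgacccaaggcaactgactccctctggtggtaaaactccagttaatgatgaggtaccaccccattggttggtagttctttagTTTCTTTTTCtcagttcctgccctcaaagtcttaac
Isg20: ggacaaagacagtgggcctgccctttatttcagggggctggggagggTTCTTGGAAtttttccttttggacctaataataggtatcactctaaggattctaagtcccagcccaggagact

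The motifs searched were the core of the interferon-stimulated response element, GAAANNGAAA or its other strand TTTCNNTTTC, and the core of the gamma-activated site, TTCNNNGAA, which reads alike on both strands. Over the 250 bases before the start, 2.98% of the 32851 promoter windows of all genes held the first and 7.02% the second, and among genes 936 of 27025 held the first in some window and 2197 the second. Of the members' 34 windows, 38.2% held the first and 20.6% the second. Of the 26 members with a window, 13 held the first in at least 1 window, 7 held the second and 3 held both. The first began 59 bases before the start in Gbp2 and 36 bases before it in Trim30a. In Igtp both were present, 34 and 45 bases before the start, without overlap. Irf1 and Isg20 held only the gamma-activated core, 90 and 73 bases before the start. In Bst2, where both cores were also found, they overlapped by part of their letters. A match of letters is a description of these windows and not a site of binding. Of the 13 members that rose on day 7 in CD4cre mice, 7 had a window here, and of the 22 not called 18 had one. The response element core was in 5 of these 7 and 8 of these 18 (45.5% and 40.0% of their windows). The gamma-activated core was in 4 and 2 of them (36.4% and 10% of their windows). By class, the response element core was in 57.1% of the windows of interferon gamma targets and 33.3% of those of type I targets. The gamma-activated core was in 28.6% and 18.5%. No test was made on these small counts.

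Values are log2 signals from the authors' gcRMA normalization. A level of 3.89 or less was read as background. Of the single values of 64 probe sets for photoreceptor, sperm and other transcripts foreign to the gut, over all samples, 95% lay under it. Epithelial markers were high in every sample (means of 10 genes from 13.57 to 14.29), while 4 of 6 T cell markers, including Cd3e and Cd4, were at background in all 6 groups. Pparg itself, measured by 1 probe set whose place relative to the deleted part is not given in the sources used here, ranged from 8.28 to 11.21 and passed in no comparison of the genotypes (adjusted p = 0.967, 0.821 and 0.749 on days 0, 2 and 7 from limma), in a tissue where cells other than T cells also express it. In 3 samples, namely WT day 2 replicate 2 and, of the CD4cre samples, replicate 2 of day 0 and replicate 1 of day 2, transcripts of pancreatic digestive enzymes had a median of at least 12.32, against at most 2.60 elsewhere. A Hox position score, the mean of 7 posterior minus that of 6 anterior Hox genes, which differ along the gut, also varied within and between groups. It was 1.22 to 1.64 in WT day 2 and 0.46 to 1.20 in CD4cre day 2. On day 7 it was -1.44 and -1.04 in WT and -1.05, 0.47 and -1.20 in CD4cre samples. On day 0 it ranged from -1.18 to 0.85, so day and position cannot be fully told apart. CD4cre day 7 replicate 2 correlated less with its partners (r = 0.980 and 0.978 over all probe sets) than these did with each other (0.992).

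Of the 36 members, 32 were above background in the mean of all 6 groups. Mx1, an antiviral GTPase, was above it in some groups only, and the related Mx2, the 2′-5′-oligoadenylate synthetase Oas3 and the feedback inhibitor Socs1 were at background in all of them. No change can be read from these 3. In bulk tissue, fewer cells of a type and less RNA per cell cannot be told apart, which applies to every level given here.

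In CD4cre mice, 13 members rose and 1 fell between day 0 and day 7 of DSS (limma, Benjamini-Hochberg adjusted p under 0.05 over all 45037 probe sets). The 13 were the interferon gamma targets Irf1, Gbp2, Gbp3, Gbp6, Igtp and Iigp1, which is 6 of 7, and the type I targets Ifit2, Oas2, Parp14, Bst2, Tap2, Trim30a and Zbp1, which is 7 of 29. Isg20, an exonuclease grouped with the type I targets, was the member that fell. Across all genes 8.67% passed in this comparison, 4.35% higher and 4.33% lower. The log2 fold change was positive for 32 of the 36 members, against 34% of all genes, with a median of 0.96 against -0.03 over all genes. Every day 7 sample was above every day 0 sample for 20 members, against 9.76% of all genes.

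The interferon gamma targets were led by Iigp1, an immunity-related GTPase that attacks the vacuoles of intracellular parasites. Iigp1 was at 7.55, 7.04 and 7.42 in the 3 CD4cre samples on day 0, at 7.98, 7.76 and 8.80 on day 2 and at 11.72, 10.97 and 10.90 on day 7. In WT mice the values were 8.33, 8.90 and 7.39 on day 0, 11.09, 8.55 and 8.42 on day 2 and 8.77 and 10.06 on day 7. All CD4cre samples of day 7 lay far above those of day 0, and the single WT sample in their range was replicate 1 of day 2. The log2 fold change in CD4cre mice was 3.86 (0.656 SE, limma adjusted p = 0.00601), or 14.5-fold.

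Igtp, a second GTPase of this family, moved in the same way. Its CD4cre values were 7.01, 6.83 and 7.56 on day 0, 7.58, 7.79 and 8.08 on day 2 and 10.81, 9.71 and 9.40 on day 7. The WT values were 7.99, 8.26 and 7.25 on day 0, 10.01, 8.01 and 7.94 on day 2 and 8.14 and 9.07 on day 7. The groups of day 0 and day 7 did not overlap in CD4cre mice and did in WT mice, and the log2 fold change in CD4cre mice was 2.84 (0.542 SE, limma adjusted p = 0.0106). Irgm1, a further GTPase of this family, did not pass. It was at 8.25, 8.09 and 8.98 on day 0, 8.49, 8.54 and 8.68 on day 2 and 9.85, 8.90 and 9.03 on day 7 in CD4cre mice, so that the highest sample of day 0 lay among those of day 7. In WT mice Irgm1 was at 9.08, 8.79 and 8.11 on day 0, 9.47, 8.32 and 8.65 on day 2 and 8.79 and 9.10 on day 7. Its log2 fold change in CD4cre mice was 0.82 (0.355 SE, limma adjusted p = 0.197).

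The guanylate-binding proteins Gbp2, Gbp3 and Gbp6, large GTPases that coat bacteria and their vacuoles, all rose in CD4cre mice. Gbp6 was at 5.91, 4.47 and 5.84 on day 0, 5.76, 5.79 and 6.37 on day 2 and 9.41, 8.53 and 8.32 on day 7, a log2 fold change of 3.35 (0.556 SE, limma adjusted p = 0.00549) or 10.2-fold. In WT mice Gbp6 was at 6.38, 5.88 and 4.85 on day 0, 7.72, 5.99 and 6.17 on day 2 and 6.48 and 7.23 on day 7. Each WT sample of Gbp6 was under the lowest CD4cre sample of day 7. A second probe set of Gbp6 had a smaller log2 fold change of 1.66 that did not pass (adjusted p = 0.10).

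Gbp2 was at 8.90, 9.12 and 8.71 on day 0, 9.14, 9.50 and 10.18 on day 2 and 12.15, 11.32 and 10.72 on day 7 in CD4cre mice. In WT mice it was at 9.27, 10.15 and 8.49 on day 0, 11.52, 9.92 and 9.50 on day 2 and 9.20 and 10.49 on day 7. WT day 2 replicate 1 was the single WT sample above the lowest CD4cre sample of day 7. The log2 fold change in CD4cre mice was 2.49 (0.587 SE, limma adjusted p = 0.0275), and 2.35 for a second probe set, the first being of a kind whose probes may also bind related transcripts. Gbp3 was at 6.62, 6.68 and 6.83 on day 0, 6.98, 7.23 and 7.75 on day 2 and 8.82, 8.92 and 8.43 on day 7 in CD4cre mice, and at 7.06, 7.18 and 6.66 on day 0, 8.57, 7.41 and 7.53 on day 2 and 6.59 and 7.71 on day 7 in WT mice. Its CD4cre samples of day 0 lay close together and WT day 2 replicate 1 was inside the range of CD4cre day 7, and its log2 fold change was 2.01 (0.339 SE, limma adjusted p = 0.00585).

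Irf1, a transcription factor induced within hours by interferon gamma, had the smallest change among those that passed in this class. It was at 8.96, 8.76 and 9.11 on day 0, 9.09, 9.21 and 9.28 on day 2 and 10.34, 9.43 and 9.86 on day 7 in CD4cre mice. The WT values were 9.23, 9.24 and 9.34 on day 0, 9.72, 9.19 and 8.91 on day 2 and 9.19 and 9.58 on day 7. Irf1 was already well above background on day 0 in every sample, and the log2 fold change was 0.93 (0.227 SE, limma adjusted p = 0.0308), or 1.91-fold. Between the genotypes on day 7 its groups overlapped.

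**Figure D1:**
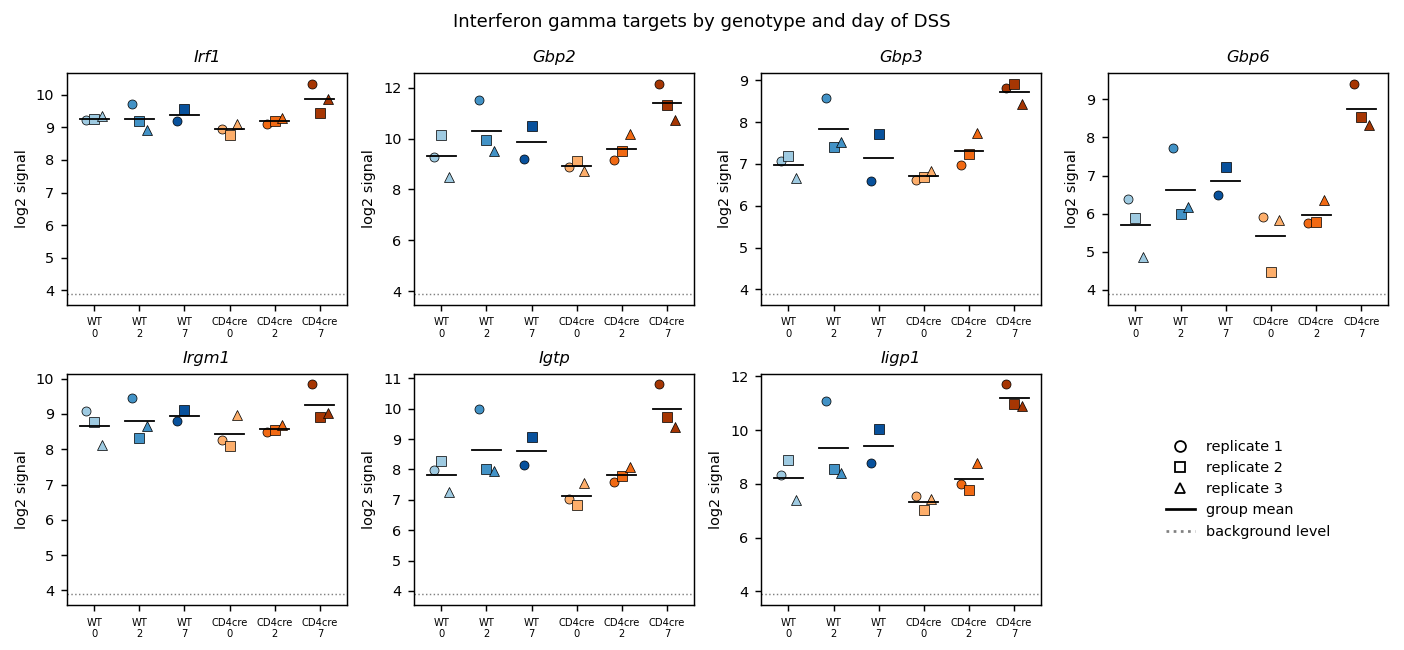
Log2 signal of the 7 measured interferon gamma targets, with genotype and DSS day on the x axis and 1 point for each of the 17 samples. Symbols are replicates, black lines group means and dotted lines the background level of 3.89. The CD4cre samples of day 7 are highest for Gbp6, and WT day 2 replicate 1 stands above its 2 partners in every panel.

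Among the type I targets, Trim30a, an interferon-induced TRIM family protein that restrains Toll-like receptor signalling, had the smallest adjusted p. In CD4cre mice it was at 6.74, 6.61 and 6.84 on day 0, 7.03, 6.95 and 7.28 on day 2 and 8.33, 9.20 and 7.90 on day 7. In WT mice it was at 6.78, 6.95 and 6.26 on day 0, 7.93, 7.63 and 7.39 on day 2 and 7.08 and 6.90 on day 7. WT day 2 replicate 1 was the single WT sample above the lowest CD4cre sample of day 7. The log2 fold change in CD4cre mice was 1.75 (0.279 SE, limma adjusted p = 0.00458), and 1.87 (adjusted p = 0.00196) for a second probe set.

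Ifit2, which binds foreign RNA and blocks its translation, had the largest rise of the type I targets that passed. It was at 6.38, 6.59 and 6.90 on day 0, 7.06, 7.24 and 7.83 on day 2 and 10.37, 8.56 and 8.93 on day 7 in CD4cre mice, a log2 fold change of 2.66 (0.533 SE, limma adjusted p = 0.0133). WT mice had 6.94, 6.93 and 5.88 on day 0, 8.76, 6.84 and 7.27 on day 2 and 7.45 and 7.61 on day 7. WT day 2 replicate 1 was the single WT sample inside the CD4cre range of day 7. Its relative Ifit1 was at 5.78, 5.0 and 8.46 on day 0, 6.42, 6.98 and 7.77 on day 2 and 9.66, 8.40 and 8.64 on day 7 in CD4cre mice and at 7.73, 6.44 and 8.0 on day 0, 7.76, 5.73 and 5.98 on day 2 and 7.93 and 7.63 on day 7 in WT mice. In Ifit1, CD4cre day 0 replicate 3 was above the lowest sample of day 7, and the log2 fold change of 2.49 (0.83 SE, limma adjusted p = 0.101) did not pass. Ifit3 did not pass either, with 1.01 (adjusted p = 0.143).

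Parp14, an ADP-ribosyltransferase, Zbp1, a sensor of Z-form nucleic acid that can trigger cell death, and Bst2, which tethers budding viruses to the cell surface, also rose. Parp14 was at 7.81, 7.61 and 8.58 on day 0, 8.11, 8.36 and 8.65 on day 2 and 9.78, 9.35 and 9.17 on day 7 in CD4cre mice and at 8.14, 8.24 and 8.36 on day 0, 9.01, 8.19 and 8.15 on day 2 and 8.29 and 8.24 on day 7 in WT mice. Zbp1 was at 7.82, 7.21 and 7.70 on day 0, 7.46, 7.94 and 8.20 on day 2 and 9.77, 8.71 and 9.12 on day 7 in CD4cre mice and at 7.57, 8.07 and 6.81 on day 0, 8.98, 7.79 and 7.34 on day 2 and 8.13 and 8.20 on day 7 in WT mice. Bst2 was at 7.35, 6.97 and 7.13 on day 0, 7.00, 7.43 and 7.91 on day 2 and 8.29, 8.63 and 8.06 on day 7 in CD4cre mice and at 7.64, 7.66 and 7.08 on day 0, 8.37, 7.57 and 7.74 on day 2 and 7.55 and 8.03 on day 7 in WT mice. For all 3 the CD4cre samples of day 7 lay above those of day 0 without overlap. The log2 fold changes were 1.43 (0.277 SE, limma adjusted p = 0.0114) for Parp14, 1.62 (0.431 SE, limma adjusted p = 0.0449) for Zbp1 and 1.18 (0.274 SE, limma adjusted p = 0.0258) for Bst2. The call for Zbp1 was lost in 11 of the 17 fits with a sample left out and under 5 of 10 other settings (adjusted p from 0.0169 to 0.199).

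Tap2 and Tap1 form the pump that loads peptides onto MHC class I, and Oas2 makes the second messenger that activates RNase L. Tap2 was at 5.49, 5.64 and 6.78 on day 0, 6.48, 6.76 and 6.78 on day 2 and 7.54, 7.17 and 6.78 on day 7 in CD4cre mice and at 6.70, 6.44 and 6.20 on day 0, 7.25, 6.56 and 6.63 on day 2 and 6.77 and 6.78 on day 7 in WT mice, with a CD4cre log2 fold change of 1.20 (0.314 SE, limma adjusted p = 0.0427). CD4cre day 0 replicate 3 of Tap2 lay just under the lowest sample of day 7, far above its partners. The call for Tap2 ended in 14 of the 17 fits with a sample left out and in 5 of 10 other settings (adjusted p from 0.00685 to 0.228). Oas2 was at 5.99, 5.90 and 5.99 on day 0, 5.98, 6.23 and 6.51 on day 2 and 6.51, 6.61 and 6.51 on day 7 in CD4cre mice and at 5.89, 6.08 and 6.25 on day 0, 6.50, 6.30 and 5.99 on day 2 and 6.29 and 6.16 on day 7 in WT mice, a log2 fold change of 0.58 (0.143 SE, limma adjusted p = 0.0329) in CD4cre mice, the smallest among the members that passed. Tap1 had a larger log2 fold change of 2.46 and a wider spread, and did not pass (adjusted p = 0.0544).

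Isg20, an exonuclease that degrades viral RNA, went the other way. It was at 8.83, 8.53 and 7.68 on day 0, 8.56, 8.36 and 8.35 on day 2 and 6.62, 7.42 and 6.76 on day 7 in CD4cre mice. WT mice had 7.54, 8.50 and 7.23 on day 0, 8.38, 8.41 and 8.69 on day 2 and 7.43 and 7.95 on day 7. Every CD4cre sample of day 7 was under every CD4cre sample of day 0 and day 2, and Isg20 fell by 1.41 (log2, with SE 0.349 and adjusted p = 0.0332 from limma). It was also the lowest in CD4cre day 0 replicate 3 and in WT day 0 replicates 1 and 3, the samples of day 0 with a low Hox position score (-1.18, -1.12 and -0.92, against 0.58 to 0.85 in the others), and among the CD4cre samples of day 7 it was highest in replicate 2, the one with a positive score (0.47). With the score as a covariate its log2 fold change in CD4cre mice was -1.05 (adjusted p = 0.00198). The part of position in its change was not tested.

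The remaining type I targets did not pass on day 7 in CD4cre mice. Ifi47, another GTPase of the immunity-related family, had one of the largest changes of all members, 2.75 (SE 0.756), and missed the threshold (adjusted p = 0.0509). It was at 6.49, 6.13 and 8.72 on day 0, 6.47, 6.93 and 8.20 on day 2 and 10.48, 9.39 and 9.71 on day 7 in CD4cre mice and at 8.50, 8.62 and 8.21 on day 0, 9.08, 6.50 and 6.96 on day 2 and 8.72 and 9.25 on day 7 in WT mice, with CD4cre day 0 replicate 3 far above its partners. Irf7, the factor that amplifies type I interferon production, was at 7.40, 7.77 and 8.96 on day 0, 7.06, 8.04 and 8.64 on day 2 and 8.61, 7.43 and 8.83 on day 7 in CD4cre mice and at 8.43, 7.89 and 8.92 on day 0, 7.67, 6.67 and 7.11 on day 2 and 7.81 and 7.49 on day 7 in WT mice. Its groups overlapped, and the log2 fold change was 0.25 (95% confidence interval -0.89 to 1.38). Oasl1, which represses Irf7 translation, was at 7.17, 7.05 and 7.30 on day 0, 5.99, 6.87 and 6.93 on day 2 and 8.49, 6.92 and 7.69 on day 7 in CD4cre mice and at 7.09, 7.39 and 7.78 on day 0, 7.05, 6.35 and 6.61 on day 2 and 6.75 and 6.56 on day 7 in WT mice. Its groups overlapped too in CD4cre mice, and the change was 0.52 on the log2 scale (limma adjusted p = 0.364).

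The other members ranged from -0.17 for Mx1 to 1.38 for Rsad2, the antiviral enzyme viperin (adjusted p = 0.0665). Usp18, which removes Isg15 from proteins, had 1.35 (adjusted p = 0.266). The signalling factors Irf9, Irf8 and Stat2 had 0.93, 0.88 and 0.64 (adjusted p = 0.0829, 0.0907 and 0.249). A second probe set of Irf8 passed with 1.16 (adjusted p = 0.0495), as did a further probe set of Ifi35 with 0.56 (adjusted p = 0.030), a gene whose standing probe set had 0.50 (adjusted p = 0.0745). The RNA sensors Ifih1 and Dhx58 had 0.24 and 0.49, the synthetases Oas1a and Oasl2 had 0.37 and 0.98, and Xaf1, which promotes cell death, had 0.49. Of the 13 members with several probe sets, 9 had 2 or more above background, and in each of these the probe sets above background had the same sign.

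**Figure D2:**
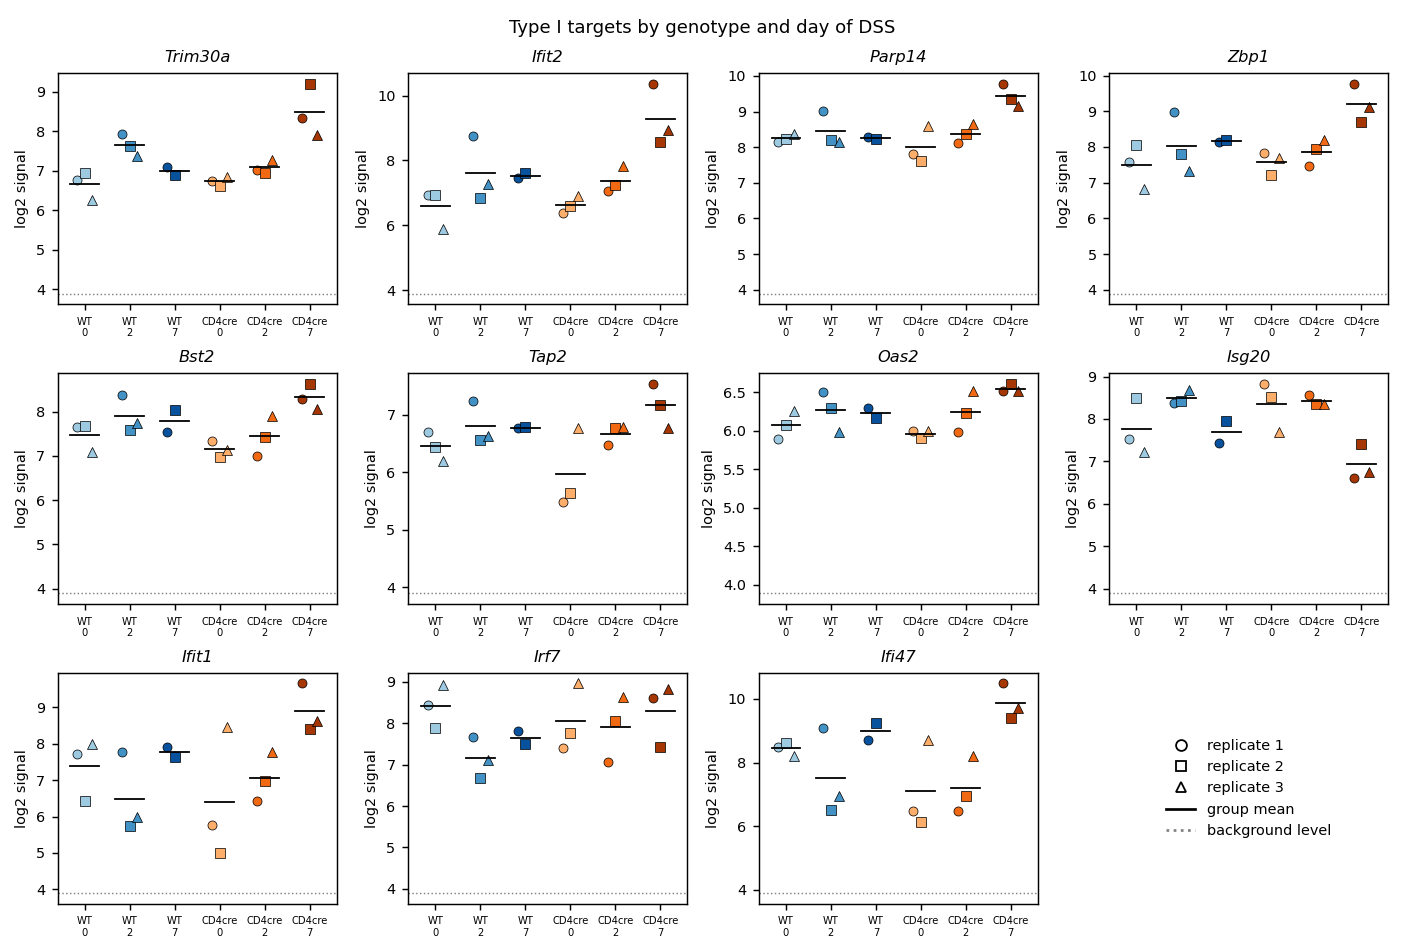
Log2 signal of 11 of the 29 measured type I targets in each sample, by genotype and day of DSS: the 8 that passed in CD4cre mice on day 7 and Ifit1, Irf7 and Ifi47, which did not. Symbols are replicates, black lines group means and dotted lines the background level. In CD4cre mice on day 0, replicate 3 (triangle) is far above its partners for Ifit1 and Ifi47.

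The median log2 fold change in CD4cre mice on day 7 was 0.88 over the 29 type I targets and 2.49 over the 7 interferon gamma targets, a difference of -1.61. With Irf8, Ifi47, Tap1, Tap2 and Socs1 counted as interferon gamma targets the medians were 0.61 over 24 genes and 2.23 over 12 genes. In the first grouping, but without Mx2, Oas3 and Socs1, which were at background in all groups, the medians were 0.96 and 2.49. These are descriptions of genes measured by different probes, and no test was made over members. In single samples, the mean of the interferon gamma targets was above that of WT day 0 by 2.45, 1.69 and 1.53 in the CD4cre samples of day 7, and that of the type I targets by 1.03, 0.70 and 0.55. Replicate 1 was the highest sample of its group for 23 of the 36 members, replicate 2 for 11 and replicate 3 for 2.

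**Figure D3:**
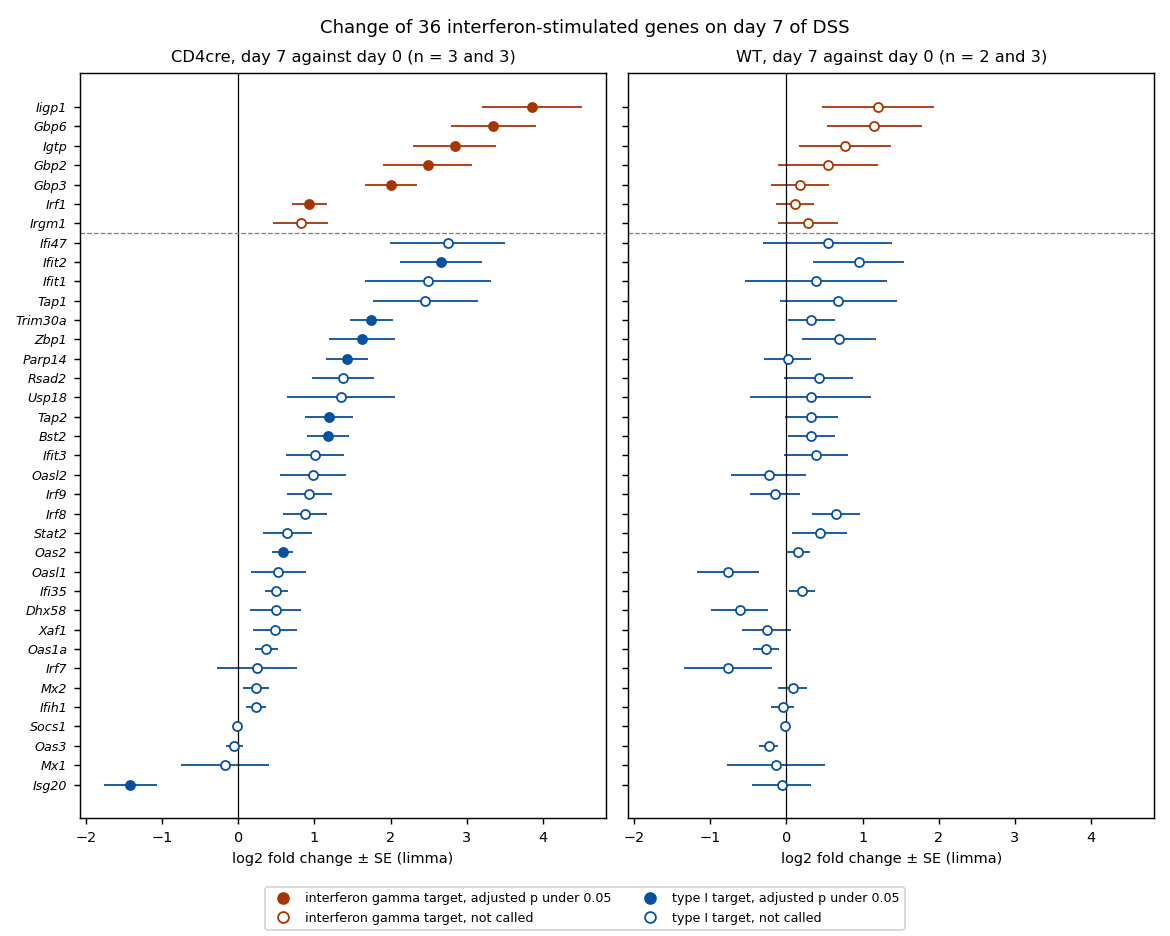
Log2 fold change of the 36 measured members on day 7 of DSS against day 0 in CD4cre mice (left) and WT mice (right). Bars are standard errors from limma, filled points passed at an adjusted p under 0.05, and the dashed line separates the interferon gamma targets (above) from the type I targets. On the left 14 points are filled and on the right none.

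The 14 calls depended on the fit. A fit of only the groups compared, which has fewer samples to estimate the spread, called 0 members and 0.066% of all genes, while leaving out the 3 samples high in pancreatic enzymes left calls for Gbp3 and Gbp6 alone, with 2.31% of all genes called and a median over the interferon gamma targets of 2.59. Centring each sample on its median called 20 members higher and 2 lower (Isg20, and Socs1, which was at background in all groups), beside 1204 genes higher and 5509 lower. Gbp3, Gbp6, Igtp, Iigp1 and Trim30a passed whichever of the 17 samples was left out, and no log2 fold change of the 14 reversed in any alternative.

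Some markers of inflammatory cells were also higher on day 7 of DSS. All 10 measured monocyte and macrophage markers rose in CD4cre mice on day 7, and their mean in single samples was 6.79 to 7.06 on day 0 and 8.75 to 9.97 on day 7, while in WT mice it was 7.08 to 7.17 and 7.73 to 7.88. Of 5 neutrophil markers, S100a8 and S100a9 rose and Cxcr2 stayed at background. Csf3r (0.55, limma adjusted p = 0.203) and Mmp9 (1.26, limma adjusted p = 0.143) did not pass. The mean of this list was 3.23 to 3.33 on day 0 and 6.14 to 7.94 on day 7. None of 6 T cell, 4 natural killer cell, 4 plasmacytoid dendritic cell, 4 B cell, 4 endothelial or 10 epithelial markers passed, and Cd3e, Ncr1 and Siglech were at background in every group. Replicate 2 of CD4cre day 7 had the highest monocyte and macrophage mean (9.97) and replicate 1 the highest mean of interferon gamma targets. Other lists also set replicate 2 apart from replicates 1 and 3. Its endothelial mean was 6.73 against 4.96 and 4.98, and its B cell mean 4.76 against 3.58 and 3.44. Its epithelial mean (13.57) was the lowest of the group. The part of these cells in the change of the members was not tested.

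**Figure D4:**
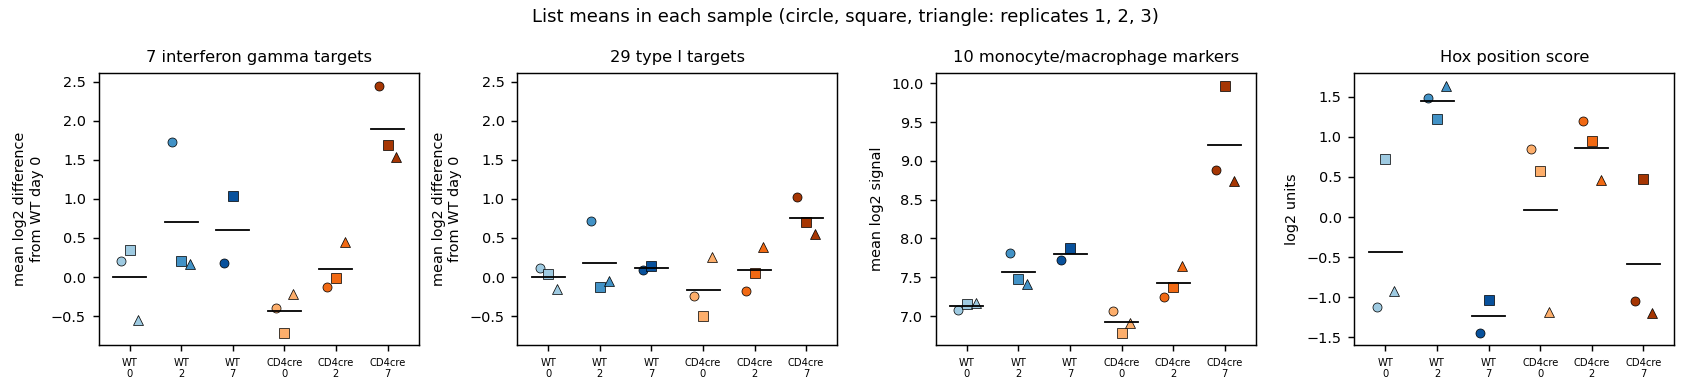
Means in each sample by genotype and day of DSS: the 7 interferon gamma targets and the 29 type I targets, both as the log2 difference from the mean of WT day 0, the log2 signal of 10 monocyte and macrophage markers, and the Hox position score in log2 units. Circles, squares and triangles are replicates 1, 2 and 3 and black lines are group means. The interferon gamma targets are highest in CD4cre day 7 replicate 1 (2.45), and WT day 2 replicate 1 (1.73) lies above all 3 CD4cre samples of day 2.

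In WT mice on day 7, none of the 36 members passed, against 0.104% of all genes called by limma. At an unadjusted p under 0.05 the counts were 0 members and 10.3% of all genes. The largest values were 1.21 for Iigp1 (95% confidence interval -0.39 to 2.81), 1.15 for Gbp6 (-0.20 to 2.51) and 0.95 for Ifit2 (-0.35 to 2.25). Irf7 and Oasl1 had the lowest, -0.76 (-2.03 to 0.51) and -0.77 (-1.65 to 0.12). All 7 interferon gamma targets were higher in WT day 7 replicate 2 than in replicate 1, with means of 9.03 and 8.17, while the type I targets had means of 7.04 and 7.00. The median log2 fold change was 0.15 over the type I targets and 0.55 over the interferon gamma targets. The latter was 0.13 without WT day 7 replicate 2, 0.15 without WT day 0 replicate 3, 0.97 without WT day 0 replicate 2 and 1.19 without WT day 7 replicate 1.

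On day 7, Trim30a was higher in CD4cre than in WT mice, and it was the only member that passed. The difference was 1.49 (0.312 SE, limma adjusted p = 0.0422), or 2.80-fold, and a second probe set gave 1.82 (adjusted p = 0.0144). Across all genes 2.03% passed, 0.918% in the higher direction. All 3 CD4cre samples of Trim30a (7.90 to 9.20) were above both WT samples (6.90 and 7.08). Dropping 1 sample of the series at a time ended the call in 14 of 17 cases, among them WT day 7 replicate 1 (adjusted p = 0.145) and replicate 2 (adjusted p = 0.227), and so did the Hox position score as a covariate (adjusted p = 0.0687), with which Isg20, lower in CD4cre mice, was the 1 member called. With the replicate number as a block the adjusted p was 0.05, and over all alternatives it ranged from 0.00473 to 0.578, the last in the fit of only the groups compared.

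At an unadjusted p under 0.05, 13 members were higher in CD4cre mice on day 7 and none lower. Of all 18193 genes, 18.6% reached this in either direction, 1332 higher and 2054 lower. They included Gbp3 (1.57, adjusted p = 0.066), Parp14 (1.17, adjusted p = 0.091), Gbp6 (1.90, adjusted p = 0.16), Ifit2 (1.76, adjusted p = 0.174) and Iigp1 (1.78, adjusted p = 0.267). Without overlap, 23 of the 36 members were higher in all 3 CD4cre samples than in both WT samples, against 11.4% of all genes. The median difference was 0.59 for the type I targets and 1.55 for the interferon gamma targets, and -0.01 over all genes. With the 5 genes that answer to both interferons moved, these medians were 0.62 and 1.01. The interferon gamma median was 0.91 without WT day 7 replicate 1 and 2.13 without replicate 2. The monocyte and macrophage mean was higher in these CD4cre samples too (8.75 to 9.97 against 7.73 to 7.88), 2 of its 10 markers passed, and its part was not tested.

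The DSS effect on day 7 was then compared between the genotypes. No member passed (limma, while 0.159% of all genes did), so a larger effect in CD4cre mice was not established for any single member. At an unadjusted p under 0.05 there were 12 members with a larger and 1 with a smaller value in CD4cre mice. Of all 18193 genes, 12.7% reached this in either direction, 809 larger and 1506 smaller. The largest differences of log2 fold changes were 2.66 for Iigp1 (adjusted p = 0.357), 2.21 for Ifi47 (adjusted p = 0.593), 2.20 for Gbp6 (adjusted p = 0.373), 2.10 for Ifit1 (adjusted p = 0.683) and 2.07 for Igtp (adjusted p = 0.398), and the smallest unadjusted p among the members was 0.00375 for Gbp3 (1.83, adjusted p = 0.198). Isg20 had -1.35 (adjusted p = 0.387) and passed with the Hox position score as a covariate. The difference was positive for 33 of 36 members, against 50.6% of all genes, and the comparison shares its day 7 and day 0 samples with those above.

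On day 2, no member passed in either genotype, against 0.0165% of all genes in CD4cre mice and 0.731% in WT mice (limma). At an unadjusted p under 0.05 there were 2 members in CD4cre mice, Oas1a (0.44) and Tap2 (0.71), against 7.9% of all genes. In WT mice there were 6, against 13.1% of all genes, with Trim30a (0.98, adjusted p = 0.183), Oas1a (0.50, adjusted p = 0.231), Ifit3 (1.00, adjusted p = 0.375), Gbp3 (0.87, adjusted p = 0.40) and Stat2 (0.81, adjusted p = 0.415) higher and Irf7 (-1.26, adjusted p = 0.445) lower. Among the marker lists, the B cell genes Ms4a1 and Cd79b rose in WT mice on day 2 (2.71 and 2.62, limma adjusted p = 0.0287 and 0.0452), 2 of 4 measured, of which Cd79a was at background in every group, and the list mean was 3.46 to 3.76 on day 0 and 4.87 to 5.26 on day 2. No B cell marker passed in CD4cre mice on day 2, where the mean was 3.44 to 3.52 and 3.38 to 3.60 on these days, and their part in the values of the members was not tested. Medians in WT mice were 0.20 over the type I targets and 0.87 over the interferon gamma targets, and in CD4cre mice 0.20 and 0.61. With the 5 shared genes moved, the WT medians were 0.29 and 0.34. The difference between the genotypes in the effect of day 2 was called for 0 members and 0% of all genes, and at an unadjusted p under 0.05 for 0 members and 4.83% of all genes.

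The WT samples of day 2 differed among themselves. Replicate 1 was the highest of its group for 32 of the 36 members and for all 7 interferon gamma targets, whose mean was 9.72 there and 8.20 and 8.16 in the others. Iigp1 was at 11.09 in this sample, inside the range of the CD4cre samples of day 7, and Tap1 at 7.38 against 4.18 and 4.97. Its monocyte and macrophage mean was 7.81, against 7.48 and 7.41, and its epithelial mean 13.95, against 13.74 and 14.04. Without it, the difference of the 2 medians in WT mice on day 2 was -0.28 in place of -0.67.

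In CD4cre mice of day 2, replicate 3 was the highest for 34 of 36 members and replicate 1 the lowest for 28. On day 0 replicate 3 was the highest for 27 and replicate 2 the lowest for 23. Shares over all genes are not given for these counts or those of the other groups. The counts therefore do not set the members apart from other genes. In replicate 3 of day 2 the epithelial mean (14.29, against 13.88 and 14.17) and the monocyte and macrophage mean (7.65, against 7.24 and 7.37) were also the highest. Its endothelial mean was not (5.06, against 4.98 and 5.18). CD4cre day 0 replicate 3 had Ifit1 at 8.46 against 5.78 and 5.0, Ifi47 at 8.72 against 6.49 and 6.13, and Irf7 at 8.96 against 7.40 and 7.77. It was also the CD4cre sample of day 0 with the lowest Hox position score (-1.18 against 0.85 and 0.58). Replicate 2 of day 0, the lowest there, was the one with pancreatic transcripts, and on day 2 replicate 1, the lowest there, was. The part of position or of pancreatic transcripts in the spread of the members was not tested.

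Between the genotypes, no member passed on day 0 or day 2, against 0.011% and 0.0275% of all genes (limma). At an unadjusted p under 0.05 there were none as well, against 5.77% and 7.64% of all genes. All 7 interferon gamma targets had lower means in CD4cre than in WT mice on both days, with medians of -0.33 and -0.65. Without WT day 2 replicate 1 the difference of the 2 medians on day 2, type I minus interferon gamma targets, was 0.19 in place of 0.58. The type I targets had medians of -0.13 and -0.07, with 10 of 29 positive (34.5%) on day 0 and 5 of 29 (17.2%) on day 2. Of all genes, 38.9% and 42.1% were positive on these days, with a median of -0.01 on each.

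The other genes of the pathway were taken from lists of ligands, receptors and kinases, transcription factors, sensors, antigen presentation, chemokines and further interferon-stimulated genes. All 6 measured ligands, among them Ifng (group means 2.61 to 2.73) and Ifnb1 (2.26 to 2.35), were at background in every group, and none passed. Of 9 receptor subunits and kinases, 3 rose on day 7 in CD4cre mice, and 1 of 6 transcription factors did, Nlrc5, the activator of MHC class I genes. Of 10 sensors and adaptors 3 rose and 1 fell, of 9 antigen presentation genes 3 rose, and of 28 further interferon-stimulated genes 10 rose and none fell, against 4.35% higher and 4.33% lower of all genes.

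Nlrc5 was at 4.46, 4.47 and 4.07 on day 0 and 7.14, 7.14 and 6.38 on day 7 in CD4cre mice, a log2 fold change of 2.55 (0.306 SE, limma adjusted p = 0.00104). The chemokines Cxcl9 and Cxcl10, which draw T cells through the receptor Cxcr3, were among the pathway genes with the largest changes. Cxcl10 was at 5.71, 5.17 and 5.43 on day 0 and 9.46, 10.16 and 9.02 on day 7 in CD4cre mice, 4.11 on the log2 scale or 17.3-fold (adjusted p = 0.00083 from limma), and at 6.01, 5.60 and 6.02 on day 0 and 5.99 and 6.00 on day 7 in WT mice. Cxcl9, at background in all 3 CD4cre samples of day 0, was at 8.09, 4.98 and 6.94 on day 7, at least 6.87-fold higher when day 0 is set to the background level (adjusted p = 0.0328). Its WT values overlapped between 4.55, 5.34 and 3.83 on day 0 and 4.77 and 6.83 on day 7. Cxcl11 was at background in every group.

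Sting1, the adaptor of the cytosolic DNA sensor, was at 4.67, 4.60 and 4.37 on day 0 and 7.17, 7.94 and 6.30 on day 7 in CD4cre mice (2.59, adjusted p = 0.000955). Ifitm1, a membrane protein that blocks viral entry, was at 8.01, 8.43 and 8.33 and 11.56, 12.81 and 11.33 on the same days (3.64, adjusted p = 0.000174). Between the genotypes on day 7 these were higher in CD4cre mice for Cxcl10 (3.55, adjusted p = 0.0107), Sting1 (2.31, adjusted p = 0.0111), Nlrc5 (1.92, adjusted p = 0.0238) and Ifitm1 (1.56, adjusted p = 0.0417), and 6 genes of the pathway lists passed in all, against 2.03% of all genes (0.918% higher). No pathway gene passed on day 2 in either genotype, in WT mice on day 7 or when the day 7 effects of the genotypes were compared. For Cxcl10, Nlrc5, Sting1 and Ifitm1 all 3 CD4cre samples of day 7 lay above every other sample of the series.

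**Figure D5:**
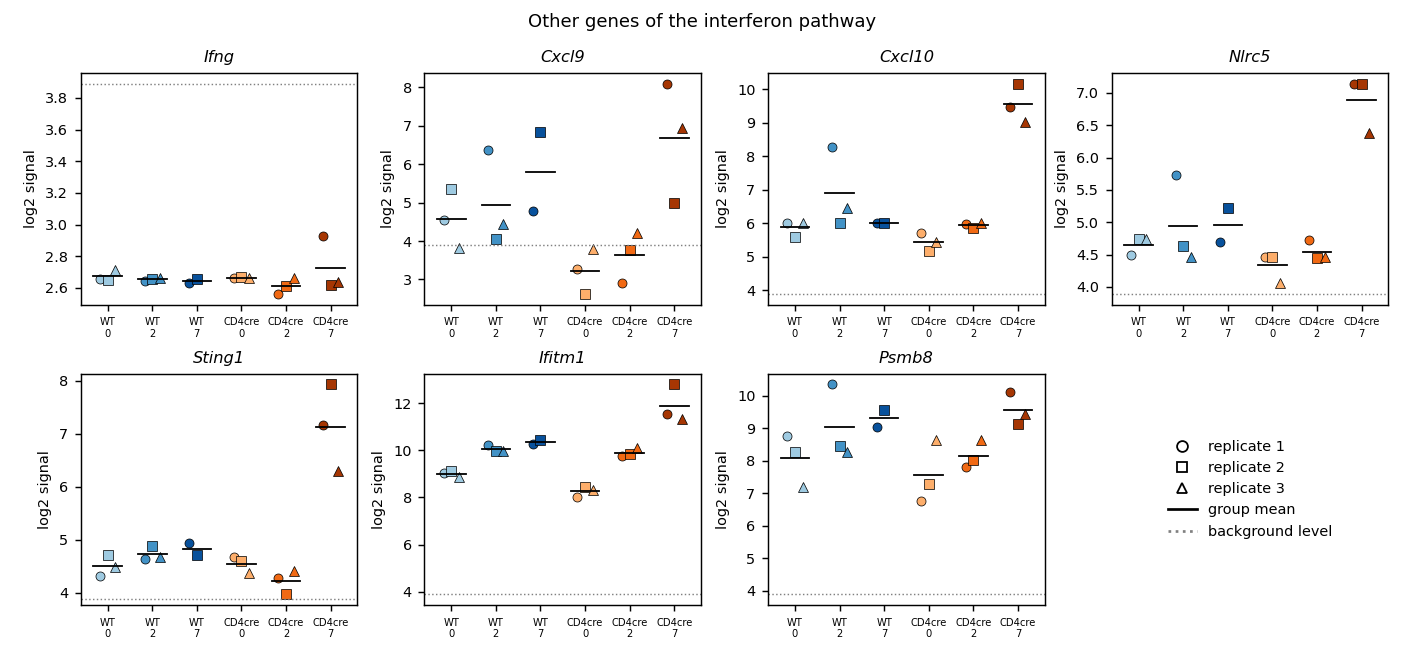
Log2 signal of 7 other genes of the interferon pathway in each sample, by genotype and day of DSS: interferon gamma (Ifng), the chemokines Cxcl9 and Cxcl10, Nlrc5, Sting1, Ifitm1 and the immunoproteasome subunit Psmb8. Symbols are replicates, black lines group means and dotted lines the background level of 3.89. Ifng stays under the background level in all 17 samples, while Cxcl10, Nlrc5, Sting1 and Ifitm1 are highest in the 3 CD4cre samples of day 7.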

How the data were processed

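RNA from colonic mucosa was hybridised to Affymetrix mouse expression arrays, 1 for each of the 17 samples. The authors read the arrays with the affy package and normalized them together with gcRMA (R 2.9.0), and the deposited values are log2 signals per probe set. Groups were taken from the sample labels, and 64 control probe sets of 45101 were left out. Of the 45037 tested, 34945 carried 1 gene symbol, 932 several and 9160 none, so that 18193 genes had a probe set standing for them, the one with the highest mean.

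All 17 samples were fitted as 6 group means with limma (3.58.1 in R 4.3.3, lmFit and eBayes, two-sided), which leaves 11 residual degrees of freedom, and p-values were adjusted by Benjamini-Hochberg over all probe sets tested within each of 9 comparisons. An adjusted p under 0.05 was called. The steps were tested on simulated data with known changes. Normalization across arrays removes any shift common to all genes, bright probes can saturate, and precision is limited by how many arrays there are.

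The members and all gene lists were chosen with earlier results of these data known. Values in every sample are given for members called in any comparison or among the 6 with the largest absolute log2 fold change in either genotype on day 7 or between the genotypes on day 7, and all measured interferon gamma targets are named. Of the other pathway genes, at most the 4 with the largest change per comparison among those called are named, with Ifng and Ifnb1. The background level of 3.89 is the 95th percentile of the single values of 64 probe sets in all samples, and 45.0 to 46.5% of probe sets per sample lay above it. Replicate numbers were not taken to pair the samples. Of 40 correlations between same-numbered samples, from -0.474 to 0.474, 16 were above 0.1. These values cannot decide whether the numbers mark pairs, since no correlations between differently numbered samples across groups were set beside them. Alternatives were fits of only the groups compared, the replicate block, trend and robust options, median centring, a floor at or filter on the background level, leaving out the 3 samples with pancreatic transcripts or each sample in turn, the Hox position score as a covariate, other thresholds, any probe set of a gene, and the 5 shared genes moved between classes.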

Additional observations from a re-analysis of the deposited data

How the results depend on the processing

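The 14 members called in CD4cre mice on day 7 became 0 in the fit of only the groups compared, 22 with each sample centred on its median and 2 without the 3 samples with pancreatic transcripts. Leaving out 1 sample gave 6 to 17, with 6 without CD4cre day 0 replicate 1 or replicate 2 and 7 without CD4cre day 7 replicate 1. The member called between the genotypes on day 7 became 0 in the fit of only the groups compared, with values under the background level raised to it and without the samples with pancreatic transcripts, 1 with the Hox position score as a covariate, where Isg20 was called lower in place of Trim30a, and 3 with the filter on background or at an adjusted p under 0.10. Leaving out 1 sample gave 0 to 3. With the replicate number as a block, 12 members were called in CD4cre mice on day 7 and 0 between the genotypes on day 7. Whether the numbers pair the samples is not known. For the difference of DSS effects on day 7 the count was 1 with the Hox position score as a covariate (Isg20), and 0 to 1 leaving out 1 sample (Trim30a without CD4cre day 7 replicate 3). For WT day 2 it was 0 to 1, the 1 without CD4cre day 7 replicate 2, and the other 5 comparisons stayed at 0 members in every alternative run. The median of type I minus that of interferon gamma targets ranged, leaving out 1 sample, from -1.96 to -1.39 in CD4cre mice on day 7, from -0.43 to -0.23 on day 2, from -0.88 to -0.28 in WT mice on day 2 (-0.28 without WT day 2 replicate 1) and from -1.0 to -0.020 on day 7 (-0.88 without WT day 0 replicate 2 and -1.0 without WT day 7 replicate 1). Between the genotypes it ranged from 0.077 to 0.53 on day 0, from 0.19 to 0.68 on day 2 and from -1.36 to -0.37 on day 7 (-0.37 and -1.36 without WT day 7 replicate 1 and replicate 2). For the difference of DSS effects it ranged from -0.096 to 0.47 on day 2, negative without WT day 2 replicate 1, and from -1.68 to -0.44 on day 7 (-0.44 and -1.68 without WT day 7 replicate 1 and replicate 2). With the 5 shared genes counted as interferon gamma targets it was -0.052 in WT mice on day 2 and -0.39 between the genotypes on day 7. The cause of these shifts was not tested. Levels near background limit what can be read of Mx1, Mx2, Oas3 and Socs1.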
